A study of Mus musculus with 16 samples.

Results

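Cultured mouse cortical neurons given secreted Klotho were compared with such cultures given vehicle. The comparison used 8 of the 16 arrays in the series, chosen by their titles: 4 neuron arrays labelled Klotho 1 nM and 4 labelled control. Neurons of C57BL/6 mice were prepared from cortex at embryonic day 16, kept for 14 days in vitro and then exposed for 24 h to 1 nM recombinant secreted Klotho in phosphate-buffered saline (PBS), or to PBS alone. Neither group carried a genetic change. Nothing in the labels ties the 4 arrays of a group to different cultures. The p-values therefore reflect how far these samples scatter, part of which may be technical, and 4 arrays a group limit the precision. The other 8 arrays hold astrocytes and serve here only as a scale for cell type markers.

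Klotho is made mainly by the distal tubule of the kidney and by the choroid plexus, and within brain parenchyma also by neurons. Its full-length form spans the membrane and joins FGF receptors to bind the hormone FGF23, while shedding or splicing releases a soluble form that acts away from the cell of origin. Soluble Klotho has been linked to phosphate handling, insulin and IGF signalling, FoxO-dependent antioxidant enzymes and, in brain, to synaptic NMDA receptors and learning. The series title concerns Klotho from neurons and glycolysis in astrocytes, and the neuron arrays ask what the protein does to transcription in neurons themselves.

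Levels are given as log2 processed intensity relative to the 75th percentile of each array, so 0 is that percentile and values below about -5 lie near background. A gene's level depends on its probe, so levels are compared between arrays and never between genes. Of the 24728 units tested (15710 with a gene symbol), 22216 were well above background on all 8 arrays. Spots well above background made up 65.0%, 67.3%, 67.1% and 67.0% of the vehicle arrays and 59.3%, 58.4%, 57.9% and 62.0% of the Klotho arrays. All Klotho arrays lay below all vehicle arrays, with a mean difference of -7.17 percentage points (exact two-sided permutation test over 70 arrangements, p = 0.0286, the smallest it can give). The lowest level that still counted as well above background was -6.68 to -6.06 on vehicle arrays and -5.82 to -5.14 on Klotho arrays. Dim genes were therefore measured over a shorter range on the Klotho arrays. All 8 arrays sat on 1 slide, with vehicle in its first row and Klotho in its second, so treatment and slide row cannot be told apart.

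**Figure D1:**
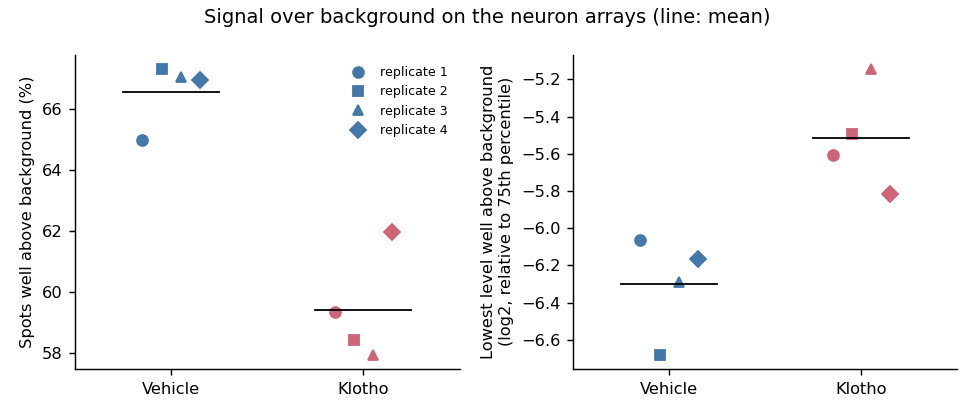
Share of spots well above background (left, percent) and the lowest level well above background (right, log2 relative to the 75th percentile) on each neuron array, with vehicle in blue, Klotho in red, a symbol for each replicate number and a line at the group mean. The 4 Klotho arrays sit between 57.9% and 62.0%, all below the vehicle arrays at 65.0% to 67.3%.

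The cultures carried the transcripts of cortical neurons. Syt1, the calcium sensor of vesicle release, lay between 5.82 and 6.995 on the neuron arrays and between -2.84 and -1.13 on the astrocyte arrays. Slc17a7, the vesicular glutamate transporter VGLUT1, lay between -0.97 and 0.83, and no astrocyte array had it above background. Gad1, which makes GABA, lay between 3.90 and 4.48 in neurons against -3.36 to -1.98 in astrocytes. All 18 neuron markers were above background on all 8 arrays. Not all of them told the cultures apart. Snap25 lay between 4.97 and 5.35 on the neuron arrays and between 3.56 and 6.52 on the astrocyte arrays. Transcripts of glial markers were detected too. Of 19 astrocyte markers 18 were above background on all 8 arrays. Gfap, the astrocyte intermediate filament, reached only -1.39 to 1.12 against 5.37 to 6.67 in astrocytes. Of all 21368 symbols on the array, 14603 were above background on all 8 arrays, so detection alone does not show that a cell type was present. Of 18 microglia markers 9 were above background throughout, and Cx3cr1 lay between -6.50 and -2.12 against 3.04 to 4.27 on the astrocyte arrays. In these bulk samples, fewer cells of a type and less RNA per cell cannot be told apart.

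Replicate 1 stood apart in both groups. Grin1, the obligatory NMDA receptor subunit, was at 3.21 and 3.13 in replicate 1 of vehicle and Klotho, against 1.52 to 1.67 and 1.86 to 2.02 in the others. Bdnf was at -0.01 and 0.06 in replicate 1 and between -1.90 and -1.46 elsewhere. Gfap showed the opposite order, at -1.30 and -1.39 against 0.49 to 1.12. Arrays with the same replicate number deviated together from their group means (r = 0.22 to 0.81), but so did arrays 2 to 4 of different numbers (r = 0.27 to 0.56), so that only number 1 was set apart. Values from a fit with the replicate number as a block (the paired fit) are given below where they bear on a result.

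Across all tested units, 36 passed limma at an adjusted p below 0.05, all lower with Klotho (0.146% of the units), and 0 were higher (0%). At an unadjusted p below 0.05 limma counted 1055 units, or 4.27% of those tested. The passing units were nearly all genes of adult liver. Of the 36, 30 were on a list of 300 liver genes, 3 were Fabp1, Mug1 and Mug2, a fatty acid binding protein and relatives of alpha-2-macroglobulin also made in liver, and 3 had no symbol. Of the 277 liver genes on the array, 116 were not tested. The list was set apart because earlier results of these data showed mostly liver genes, so its overlap with the 36 is no independent support. Alb, which encodes serum albumin, was at 0.94, -0.99, 0.64 and 0.13 on the vehicle arrays and between -6.78 and -6.13 with Klotho, where it was not well above background on any array. Its level was at least 51.8-fold lower (adjusted p = 0.000835). The bound sets the vehicle mean against the mean, over Klotho arrays, of the higher of the gene's own signal and that array's lowest signal well above background. Of the 36 units 26, Alb included, were above background on no Klotho array and entered the test through the vehicle group alone. The p-values of these 26 rest on Klotho signals that are not well above background. Entry through the vehicle group alone also selects for values that are lower with Klotho. These p-values are therefore no separate support, and the size of the 26 falls is given by the bound only. Another 6 of the 36 were above background on part of the arrays. Those of the 6 with a symbol, Mup19, Serpinc1, Mup4, Itih4 and Hp, also entered through the vehicle group alone. Without replicate 1 of both groups 15 units passed, and the paired fit called 21, of which 19 were among the 36.

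Only 4 of the 36 units were above background on all 8 arrays, and all 4 were on the liver list: Serpina1a, Serpina1c, Serpina1e and Fbp1. The 3 Serpina1 genes are near-identical copies of the alpha-1-antitrypsin gene, so their probes may share signal. Fbp1, fructose-1,6-bisphosphatase of gluconeogenesis, lay between -2.89 and -2.59 with vehicle and between -4.57 and -3.97 with Klotho, a change of -1.49 ± 0.16 (SE; adjusted p = 0.0114). In the paired fit its adjusted p was 0.0657. Among the 14515 genes with a symbol that were off the liver list and above background throughout, 0 passed in limma and 0 in the paired fit, while 471 had an unadjusted p below 0.05. Their smallest adjusted p was 0.0988 without pairing and 0.0802 with it.

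Genes of neuronal function made up 17 lists, from glutamate receptors to interneuron identity, with 438 genes in all. Of these 434 had a probe, 421 were above background on all 8 arrays, and none was above background on all vehicle arrays and lost on all Klotho arrays (0). None of the 421 passed (0), with or without pairing. Their change from vehicle to Klotho ran from -0.47 for Ret to 0.50 for Map6d1, with a median of -0.01 beside -0.02 over all units above background throughout. Change was below 0 in 221 and above 0 in 200. An unadjusted limma p below 0.05 was found for 5 lower and 3 higher neuronal genes, beside 1.71% lower and 1.74% higher among all units above background throughout. In the paired fit 43 were lower (10.2%) and 19 higher (4.51%) at an unadjusted p below 0.05, beside 7.33% and 5.2% of all such units. The 2 groups did not overlap for 8 lower and 5 higher genes, beside 2.48% and 1.51% of all such units. Of all such units 17.4% were lower and 9.14% higher in all 4 pairs. Genes given below as lower or higher in 4 of 4 pairs are to be read beside these shares.

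The intervals set how large an uncalled change could be. In the unpaired fit, the 95% confidence interval of the log2 change lay within a 2-fold change in either direction for 380 of the 421 neuronal genes and within 1.5-fold for 210, with a median half-width of 0.45. With the replicate number as a block, the interval of all 421 lay within 2-fold and that of 399 within 1.5-fold, with a median half-width of 0.22. The narrower intervals depend on a pairing by replicate number in which only number 1 was set apart. All of these intervals hold for each gene alone.

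**Figure D2:**
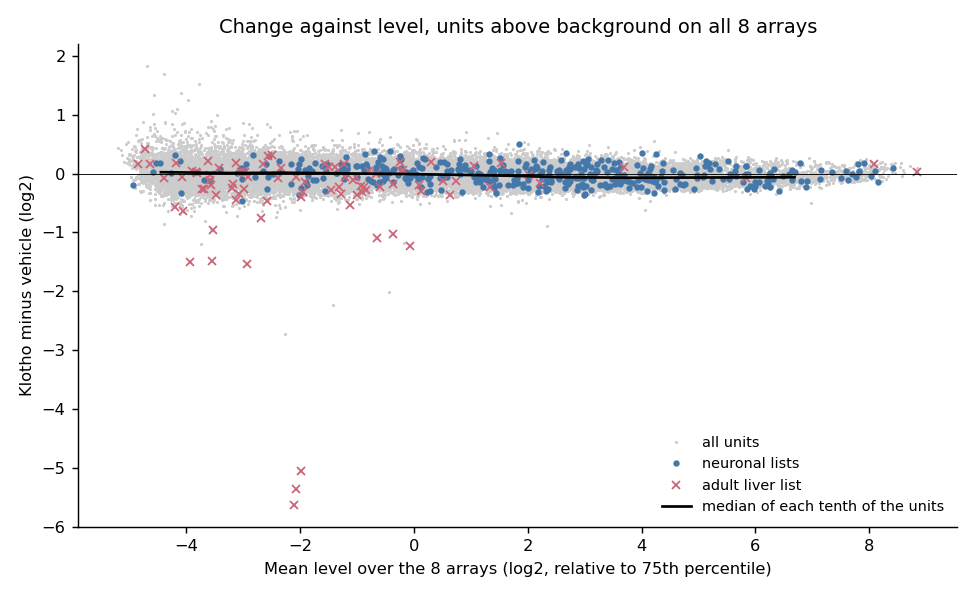
Change with Klotho (log2, Klotho minus vehicle) against mean level over the 8 arrays (log2, relative to the 75th percentile) for the 22216 units above background on all 8 arrays, with genes of the neuronal lists in blue, liver genes as red crosses and a black line through the medians of 10 equal bins of level of the units off the liver list. The 421 neuronal genes lie between -0.47 and 0.50, while the 3 Serpina1 genes lie below -5.

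Change also moved with level over all units. Among units off the liver list, 54.6% of the dimmest of 10 bins of level were higher with Klotho and 29.8% of the brightest bin, with medians of 0.02 and -0.06. The deposited value table, in which each array is divided by its own SD, gives a different slope, because that SD was 4.26 to 4.34 on vehicle arrays and 4.03 to 4.16 on Klotho arrays. Under it, 15 of the 38 lists turned from a median below 0 to one above 0, 8 of them named here only: sodium channels, calcium buffers and pumps, neuropeptides, FGF receptors and partners, insulin signalling, antioxidant enzymes, cholesterol synthesis and oligodendrocyte markers.

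Receptors for glutamate, the main excitatory transmitter of cortex, showed no passing change. Of the 16 genes of AMPA and kainate receptors and their auxiliary subunits, 11 were below 0, with a median of -0.07 that turned to 0.01 SD units under the value table. Gria2, the AMPA subunit that limits calcium entry, was at 1.67, 1.95, 1.95 and 2.64 with vehicle and at 2.23, 2.11, 2.00 and 2.06 with Klotho. The groups overlapped fully, and the change was 0.05 (95% interval -0.40 to 0.49). Grik2, a kainate receptor subunit, had the smallest p of this list with a change of -0.27 ± 0.14 (SE; adjusted p = 0.987 in limma). Of 17 NMDA and metabotropic receptor genes 11 were below 0, with a median of -0.03 that was 0.00 under the value table. Grin2b, the NMDA subunit of young cortical neurons, lay between 1.34 and 1.57 with vehicle and between 1.43 and 1.89 with Klotho. Grin1 differed by 0.23 with an unpaired interval of -0.76 to 1.22 and a paired interval of -0.03 to 0.49, since replicate 1 was high in both groups.

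Genes of GABA signalling, the main inhibitory system, had the lowest median of the neuronal lists, -0.13, with 14 of 21 below 0. That median was 0.01 SD units under the value table and ran from -0.26 to 0.07 when single arrays were left out, so its direction was not settled. In the bin of level from 2.15 to 3.18, 34.4% of units off the liver list were higher, with a median change of -0.06. The mean level of the GABA list lay within this bin on all arrays but vehicle replicate 1. The part of signal level in the GABA values was not tested. Slc12a2, the chloride importer NKCC1, was at 2.54, 2.47, 2.16 and 2.18 with vehicle and 2.35, 1.94, 1.87 and 1.96 with Klotho, lower in 4 of 4 pairs by 0.31 ± 0.15 (SE). Gabra4, a receptor subunit, was lower in 4 of 4 pairs by 0.30 ± 0.23 (SE). Slc12a5, the neuronal chloride exporter KCC2, had a change of -0.21 with paired limits of -0.41 and -0.01. None of these passed, with paired adjusted p-values of 0.36 to 0.37. Gabrg1 was measured by a pair of probes whose changes were -0.16 and 0.68, so its direction depended on the probe.

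Presynaptic genes showed no passing change. Of 33 genes of the synaptic vesicle and its release machinery 20 were above 0, with a median of 0.06 that stayed above 0 under the 4 other scalings and was -0.05 without vehicle replicate 2, -0.01 without vehicle replicate 4 and -0.09 without Klotho replicate 1. Snap25, a SNARE protein of fusion, was at 5.20, 5.04, 5.13 and 4.97 with vehicle and 5.35, 5.27, 5.25 and 5.19 with Klotho. It was higher in 4 of 4 pairs by 0.18 (paired interval 0.00 to 0.35; adjusted p = 0.37 in limma). Cplx1, a complexin that clamps fusion, was higher in 4 of 4 pairs by 0.34, and Syn3 and Rims1 likewise by 0.29 and 0.25. These 3 were named after their values were seen. With pairing, 4 genes of the list were higher and 1 lower at an unadjusted p below 0.05, beside 5.2% and 7.33% of all units above background throughout.

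At the postsynaptic side, 15 of 24 genes of scaffolds and kinases were above 0, with a median of 0.04 that was -0.01 under median scaling. Dlg4, the scaffold PSD-95, was at 3.18, 2.62, 2.90 and 3.06 with vehicle and 3.65, 2.98, 3.19 and 2.93 with Klotho, with an interval of -0.19 to 0.68. Nrgn, neurogranin, which binds calmodulin, was higher in 3 of 4 pairs by 0.36 ± 0.20 (SE). Camk2g, a subunit of calcium/calmodulin kinase II, was at 5.33, 4.91, 4.92 and 5.01 with vehicle and 5.06, 4.65, 4.72 and 4.71 with Klotho. It was lower in 4 of 4 pairs by 0.26, with a paired adjusted p of 0.36. Camk2a, the forebrain subunit of the same kinase, had a change of 0.12 with paired limits of -0.12 and 0.36.

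**Figure D3:**
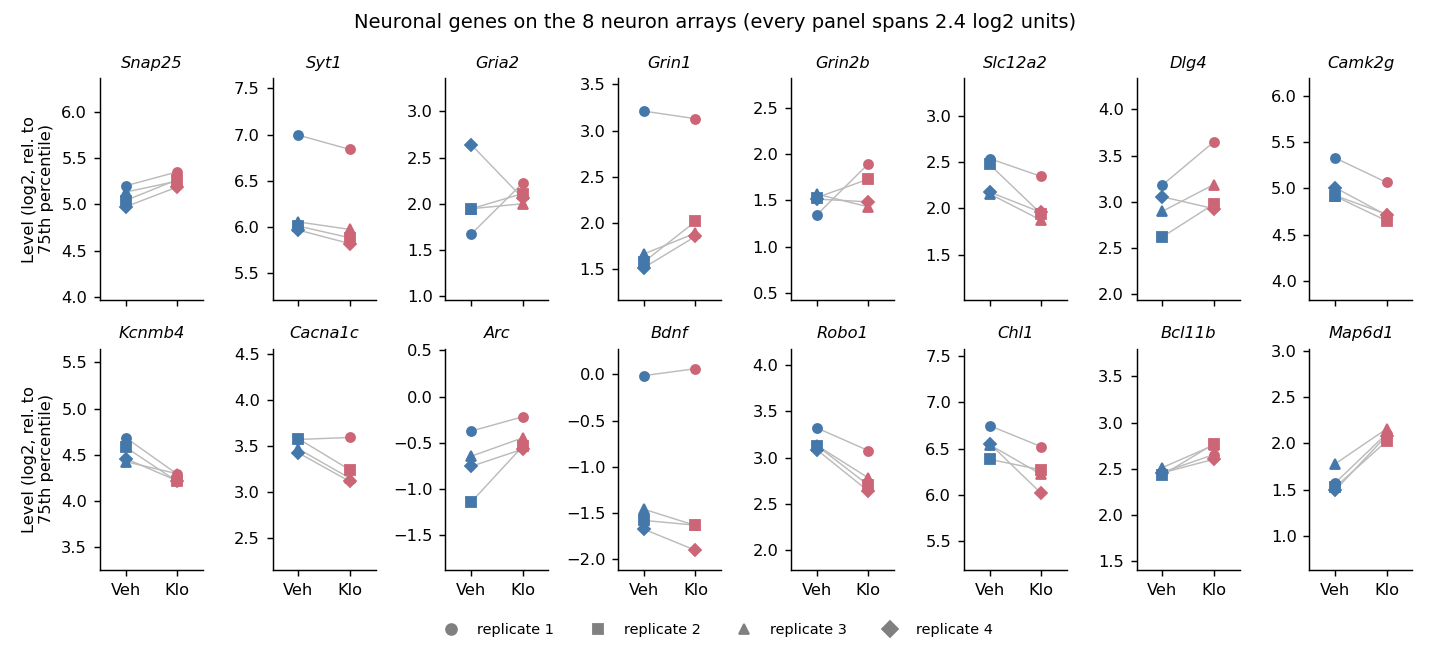
Level of 16 neuronal genes on each of the 8 arrays (log2, relative to the 75th percentile), with vehicle on the left, Klotho on the right, a symbol for each replicate number and a grey line joining arrays of the same number. Replicate 1 stands apart for Syt1, Grin1 and Bdnf in both groups, while Robo1 and Kcnmb4 do not overlap between groups and Map6d1 is higher on every Klotho array.

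Ion channel genes were split in both directions. Of 38 potassium and HCN channel genes 17 were below and 21 above 0. Kcnmb4, the brain beta subunit of BK channels, was at 4.69, 4.58, 4.43 and 4.46 with vehicle and 4.29, 4.21, 4.30 and 4.22 with Klotho. The groups did not overlap, and the change of -0.28 ± 0.10 (SE) had an adjusted p of 0.987 in limma; a second probe gave -0.08. Hcn2, a pacemaker channel, was higher in 3 of 4 pairs by 0.35 ± 0.23 (SE). The 13 genes of the sodium channel list lay between -0.13 and 0.24, the narrowest range of the neuronal lists. That list also holds the FGF family genes Fgf12 and Fgf13, and Fgf13 was its highest member. Scn2a, the main sodium channel of excitatory axons, had a change of -0.13 (95% interval -0.53 to 0.26). Of 14 calcium channel genes 6 were below and 8 above 0. Cacna1c, the L-type channel Cav1.2, was lower in 3 of 4 pairs by 0.24 ± 0.13 (SE) on its brighter probe, and the other probe gave 0.24.

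Disagreement between probes was common at this size of change. Of the 421 neuronal genes, 178 had at least 2 tested probes, and for 88 of these the changes of the probes lay on both sides of 0. Among calcium buffers and ion pumps, 13 of 25 were below 0. Slc8a3, a sodium-calcium exchanger, was higher in 4 of 4 pairs by 0.21 on its brighter probe and by 0.94 on another.

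Activity-regulated genes, which follow synaptic input within minutes to hours, had a median change of 0.04 over 26 members, with 16 above 0; the median was 0.00 under median scaling and 0.26 within replicate number 2 alone. Arc, which drives AMPA receptor endocytosis, was at -0.37, -1.14, -0.65 and -0.76 with vehicle and -0.22, -0.54, -0.45 and -0.57 with Klotho, higher in 4 of 4 pairs by 0.29 ± 0.17 (SE). Nr4a2, an orphan nuclear receptor, was higher in 4 of 4 pairs by 0.26, although a second probe gave 0.01. Fosb was higher in 3 of 4 pairs by 0.32 ± 0.16 (SE). None of the 3 passed (adjusted p of 0.987 in limma). Fos was at -2.05, -1.35, -0.40 and -0.50 with vehicle and -2.13, -0.52, -0.50 and -0.61 with Klotho. The 2 groups overlapped, and replicate 1 was the lowest array of each.

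Neurotrophin genes and their receptors had a median of -0.08 over 15 members. Ret, the signalling receptor for GDNF, was at -1.99, -2.97, -3.09 and -3.09 with vehicle and -2.13, -3.53, -3.69 and -3.68 with Klotho. It was lower in 4 of 4 pairs by 0.47, with an unpaired standard error of 0.40 and a paired interval of -0.73 to -0.21. Its ligand Gdnf was also lower in 4 of 4 pairs by 0.33, with paired limits of -0.51 and -0.14. Sort1, a sorting receptor for proneurotrophins, was lower in 4 of 4 pairs by 0.34. All 3 had an adjusted p of 0.36 in the paired fit. Bdnf had a change of -0.09 with an unpaired interval of -1.25 to 1.06 that narrowed to -0.30 to 0.11 with pairing. Ntrk2, the BDNF receptor TrkB, had paired limits of -0.28 and 0.12.

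Among 23 neuropeptide and secretory granule genes 13 were below 0. Npy was at 3.31, 3.32, 3.76 and 3.64 with vehicle and 3.101, 3.90, 4.01 and 3.79 with Klotho, which overlap. Vgf, a granule protein regulated by neurotrophins, was at 5.55 and 5.45 in replicate 1 and between 3.32 and 3.86 elsewhere, with a change of 0.08. Chgb, chromogranin B, was lower in 4 of 4 pairs by 0.26 (paired adjusted p = 0.36).

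Map6d1 had the smallest adjusted p of the neuronal genes, with and without pairing. It encodes a palmitoylated protein related to the microtubule stabiliser MAP6. Its level was 1.57, 1.53, 1.78 and 1.49 with vehicle and 2.11, 2.03, 2.16 and 2.09 with Klotho, so the groups did not overlap and 4 of 4 pairs were higher. The change was 0.50 ± 0.10 (SE; 95% interval 0.27 to 0.73), with an adjusted p of 0.32 in limma and 0.19 with pairing, and a single probe measured it. It passed only when units below background were kept in the fit (adjusted p = 0.0158). Of the 36 cytoskeleton and axonal transport genes 20 were above 0, with a median of 0.03 that was -0.01 under median scaling. Basp1, a growth cone protein, was higher in 3 of 4 pairs by 0.30 ± 0.14 (SE), and Gap43, its neighbour in function, had a change of 0.03 with paired limits of -0.21 and 0.27. Nefl, the light neurofilament chain, had a change of 0.04.

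Axon guidance genes included 13 of 38 (34.2%) that were lower in all 4 pairs, beside 17.4% of all units above background throughout, while 9.14% of all units were higher in all 4. Of these guidance genes 26 were below 0, with a median of -0.08 that was -0.01 SD units under the value table. Robo1, a receptor for Slit, was at 3.32, 3.13, 3.13 and 3.09 with vehicle and 3.08, 2.70, 2.78 and 2.64 with Klotho. Every Klotho array was below every vehicle array, a change of -0.37 ± 0.12 (SE; adjusted p = 0.987 in limma, 0.345 with pairing). Epha5, an ephrin receptor, lay between 3.11 and 3.43 with vehicle and between 2.90 and 3.08 with Klotho, with a change of -0.27 on its brighter probe and 0.01 on the other. Epha4 lay between 1.96 and 2.10 with vehicle and between 1.71 and 1.90 with Klotho, a change of -0.22 ± 0.09 (SE). In the paired fit, 9 of 38 guidance genes (23.7%) were lower at an unadjusted p below 0.05 and 0 were higher, beside 7.33% and 5.2% of all units above background throughout. The other 6 of the 9 were Nrp2 and Plxna2, receptors for semaphorins, and the secreted ligands Slit1, Slit2, Sema3a and Sema3c, with changes of -0.33 to -0.23; they were named after their values were seen. Nrp2 also had a probe with a change of 0.11.

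Among 43 synaptic adhesion genes 29 were below 0, with a median of -0.09 that was 0.03 SD units under the value table and 0.03 without vehicle replicate 1. With pairing, 10 (23.3%) were lower at an unadjusted p below 0.05 and 0 were higher. Among all units above background throughout these shares were 7.33% and 5.2%. In all 4 pairs 14 (32.6%) were lower, beside 17.4% of all such units. The shares of all units were not counted by level. In the bin of level from 2.15 to 3.18, 34.4% of units off the liver list were higher, with a median change of -0.06. The mean level of the adhesion list lay within this bin on all 8 arrays. Chl1, a close homolog of L1, was at 6.75, 6.38, 6.54 and 6.55 with vehicle and 6.52, 6.27, 6.22 and 6.02 with Klotho, a change of -0.30 ± 0.13 (SE). Cdh2, N-cadherin, lay between 6.12 and 6.36 with vehicle and between 5.97 and 6.10 with Klotho; the groups did not overlap and both probes agreed, at -0.21 and -0.20. Nlgn1, the postsynaptic partner of neurexins, was lower in 4 of 4 pairs by 0.20. No gene of either list passed, and the paired adjusted p-values of these 9 and 10 genes were 0.345 to 0.369 in limma. Without replicate 1 of both groups the list medians were -0.10 and -0.07.

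Astrocyte markers, none of which passed, are given beside these lists, since some guidance and adhesion genes are also expressed by glia. Of the 18 astrocyte markers above background throughout, 15 were below 0, with a median of -0.15 (-0.01 SD units under the value table, with 11 below 0). By replicate number their medians were -0.24, -0.21, -0.20 and 0.02. Their mean level was 2.01 to 2.45 on the vehicle arrays and 1.76 to 2.397 on the Klotho arrays. Cdh2 and Epha4 were as high in astrocytes as in neurons, at 6.63 to 7.38 and 1.99 to 2.67, whereas Robo1 was lower there, at 0.57 to 1.42. The parts of glial RNA and of signal level in the guidance and adhesion values were not tested.

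**Figure D4:**
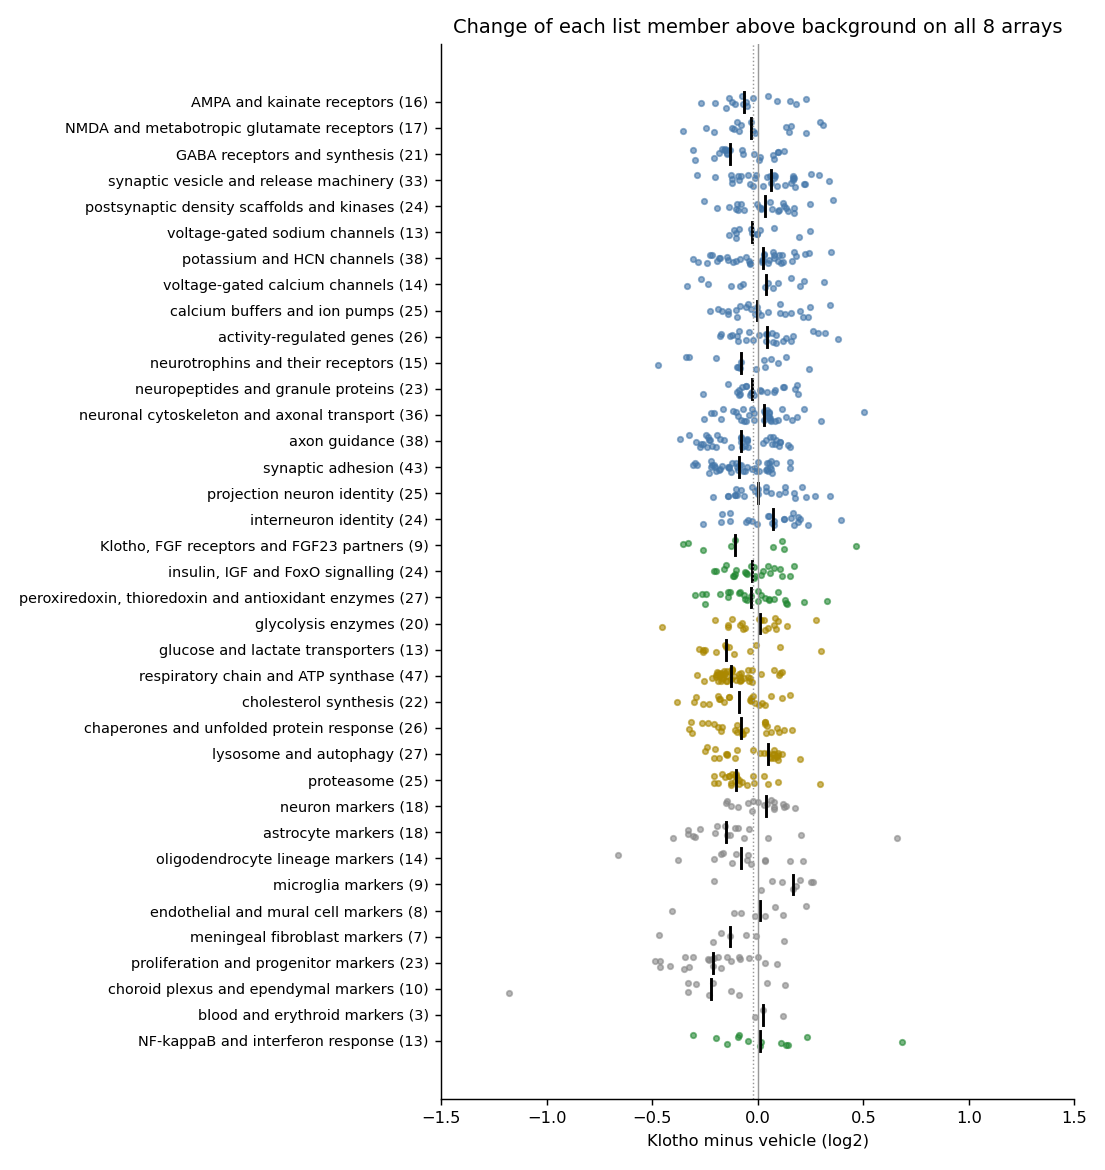
Change with Klotho (log2, Klotho minus vehicle) of every list member above background on all 8 arrays, with the number of such members in brackets, neuronal lists in blue, signalling in green, metabolism in yellow and cell types in grey. The black bar is the list median, the solid line is 0 and the dotted line the median of all units, -0.02; medians of the neuronal lists lie between -0.13 and 0.07.

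Transcription factors that mark cortical neuron classes moved little. Of 25 projection neuron genes 11 were below and 14 above 0. Tbr1, of deep-layer neurons, had a change of 0.00 (95% interval -0.32 to 0.32). Bcl11b, of subcerebral projection neurons, lay between 2.43 and 2.51 with vehicle and between 2.60 and 2.77 with Klotho, a change of 0.23 ± 0.09 (SE) on the brighter probe and 0.06 on the other. Nr2f1, a patterning factor of cortical area, lay between 6.06 and 6.10 with vehicle and between 5.82 and 5.92 with Klotho. Its change of -0.21 ± 0.08 (SE) was seen by both probes. For both genes the groups did not overlap and the adjusted p was 0.987 in limma. Of 24 interneuron genes 15 were above 0, with a median of 0.07. Lhx6, of interneurons born in the medial ganglionic eminence, lay between 3.12 and 3.38 with vehicle and between 3.47 and 3.58 with Klotho, a change of 0.24 that was 0.05 on another probe. On the astrocyte arrays its brighter probe lay between 1.56 and 5.01, so it did not set neuron cultures apart here. Htr3a, a serotonin receptor of another interneuron class, was higher in 4 of 4 pairs by 0.39 ± 0.18 (SE).

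Kl, which encodes Klotho, lay between -6.72 and -5.51 on all neuron arrays and was not tested, because it was not above background throughout either group, and Klb, the relative that serves FGF21, was not above background on any. Of 9 FGF receptor and partner genes above background throughout, 5 were below 0. Fgfr1, the receptor most often paired with Klotho, was at 4.10 and 3.99 in replicate 1 and between 4.72 and 4.88 elsewhere, a change of -0.13 with paired limits of -0.30 and 0.04. Fgfr3 lay between 2.77 and 3.28 with vehicle and between 2.54 and 2.75 with Klotho, a change of -0.33 ± 0.13 (SE), and is also an astrocyte marker. Frs2, the docking protein below FGF receptors, was lower in 4 of 4 pairs by 0.26 ± 0.11 (SE). Lctl, a gene of the Klotho family, lay between -4.42 and -3.77 with vehicle and between -3.56 and -3.48 with Klotho, a change of 0.47 ± 0.15 (SE). None passed (adjusted p of 0.987 in limma).

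Signalling linked to Klotho showed no passing change either. Of 24 insulin, IGF and FoxO genes 15 were below 0, their range was -0.21 to 0.17, and 0 had an unadjusted p below 0.05 with or without pairing. Of 27 peroxiredoxin, thioredoxin and antioxidant genes 16 were below 0. Prdx2, a neuronal peroxiredoxin, had a change of -0.06 with paired limits of -0.24 and 0.11. Gclm, of glutathione synthesis, was higher in 4 of 4 pairs by 0.33. Prdx6 and Nfe2l2 (the factor NRF2) were lower in 4 of 4 pairs by 0.30 and 0.27, and both were named after their values were seen. Of the 27 genes, 7 (25.9%) were lower and 2 (7.41%) higher in all 4 pairs. The shares of all units above background throughout were 17.4% and 9.14%. Prdx6 and Nfe2l2 were higher on all astrocyte arrays, at 7.62 to 8.87 and 4.87 to 6.09, than on the neuron arrays, at 4.66 to 5.89 and 0.55 to 2.56.

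Irak2, a kinase of interleukin-1 and Toll-like receptor signalling, had the smallest p of the paired fit among genes off the liver list and above background throughout. It was at 0.97, 1.04, 1.40 and 1.04 with vehicle and 1.52, 1.80, 2.05 and 1.82 with Klotho. The groups did not overlap, and the change was 0.68 ± 0.15 (SE; 95% interval 0.35 to 1.02), with an adjusted p of 0.43 in limma and 0.08 with pairing. A second probe gave 0.12. Of the 13 genes of the NF-kappaB and interferon list, Irak2 included, 7 were above 0, with a median of 0.01 that was -0.03 under median scaling, -0.04 under quantile scaling and -0.04 SD units under the value table. Relb, a subunit of NF-kappaB, and Nos2, the inducible nitric oxide synthase, were also higher in 4 of 4 pairs, by 0.23 and 0.13, with paired adjusted p-values of 0.36 and 0.52 in limma; both were named after their values were seen. The inflammatory transcripts Il1b, Tnf, Il6, Cxcl2 and Icam1 were not above background on any array.

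Genes of energy metabolism showed no passing change. Of 20 glycolytic genes 11 were above 0, and Ldha, which makes lactate, had a change of -0.14 with a pair of other probes reaching 0.05. Hk2, the inducible hexokinase, was at -2.92, -2.22, -2.45 and -2.32 with vehicle and -3.45, -2.70, -2.92 and -2.66 with Klotho, lower in 4 of 4 pairs by 0.45 ± 0.22 (SE; paired adjusted p = 0.25 in limma). Of 13 glucose and lactate transporter genes 11 were below 0, with a median of -0.15 (-0.02 SD units under the value table). Slc2a3, the neuronal glucose transporter GLUT3, had a change of 0.10, and Slc2a1, the glial and endothelial GLUT1, was lower in 4 of 4 pairs by 0.20.

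Subunits of the respiratory chain and ATP synthase had no passing change. Of 47 members 42 were below 0 and 21 (44.7%) were lower in all 4 pairs, with a median of -0.13, whereas under the value table all 47 were above 0 with a median of 0.04 SD units. Uqcrb, a subunit of complex III, was at 5.89, 5.77, 5.69 and 5.77 with vehicle and 5.54, 5.36, 5.56 and 5.52 with Klotho, and all 3 of its probes were below 0. By replicate number the list medians were -0.20, -0.25, -0.04 and -0.01, so the shift lay mainly in numbers 1 and 2. Of the proteasome genes 21 of 25 were below 0 and 13 (52.0%) were lower in all 4 pairs, with a median of -0.11 that was 0.04 SD units under the value table. Among all units above background throughout, 17.4% were lower in all 4 pairs. That share was not counted by level. Both lists hold bright genes, of which 29.8% were higher with Klotho in the brightest bin of level. The part of signal level in the values of both lists was not tested. Psmb7 went against its list, at 3.26 to 3.44 with vehicle and 3.59 to 3.72 with Klotho.

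Chaperone and unfolded protein response genes were below 0 in 16 of 26, with a median of -0.08 (0.03 SD units under the value table). Of 27 lysosome and autophagy genes 16 were above 0, yet the members with the smallest p were lower. Ctsa, a lysosomal carboxypeptidase, lay between 5.64 and 5.72 with vehicle and between 5.40 and 5.45 with Klotho, a change of -0.25 ± 0.08 (SE), seen also by a second probe at -0.17. Ulk1, which starts autophagy, was lower by 0.24 ± 0.10 (SE), with no overlap between groups. None passed.

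Cholesterol synthesis and proliferation each turned on a single pair. The 23 proliferation and progenitor markers had a median of -0.21, and 20 were below 0, but by replicate number the medians were -0.10, -0.92, 0.02 and 0.02. Mki67, which marks cycling cells, was at 1.94, 2.998, 1.62 and 1.74 with vehicle and 2.17, 1.37, 1.31 and 1.51 with Klotho, so vehicle replicate 2 alone was high. Without replicate 2 of both groups the list median was 0.00. The 22 cholesterol synthesis genes had medians of -0.07, -0.63, 0.11 and 0.12, and 0.05 in all without replicate 2.

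**Figure D5:**
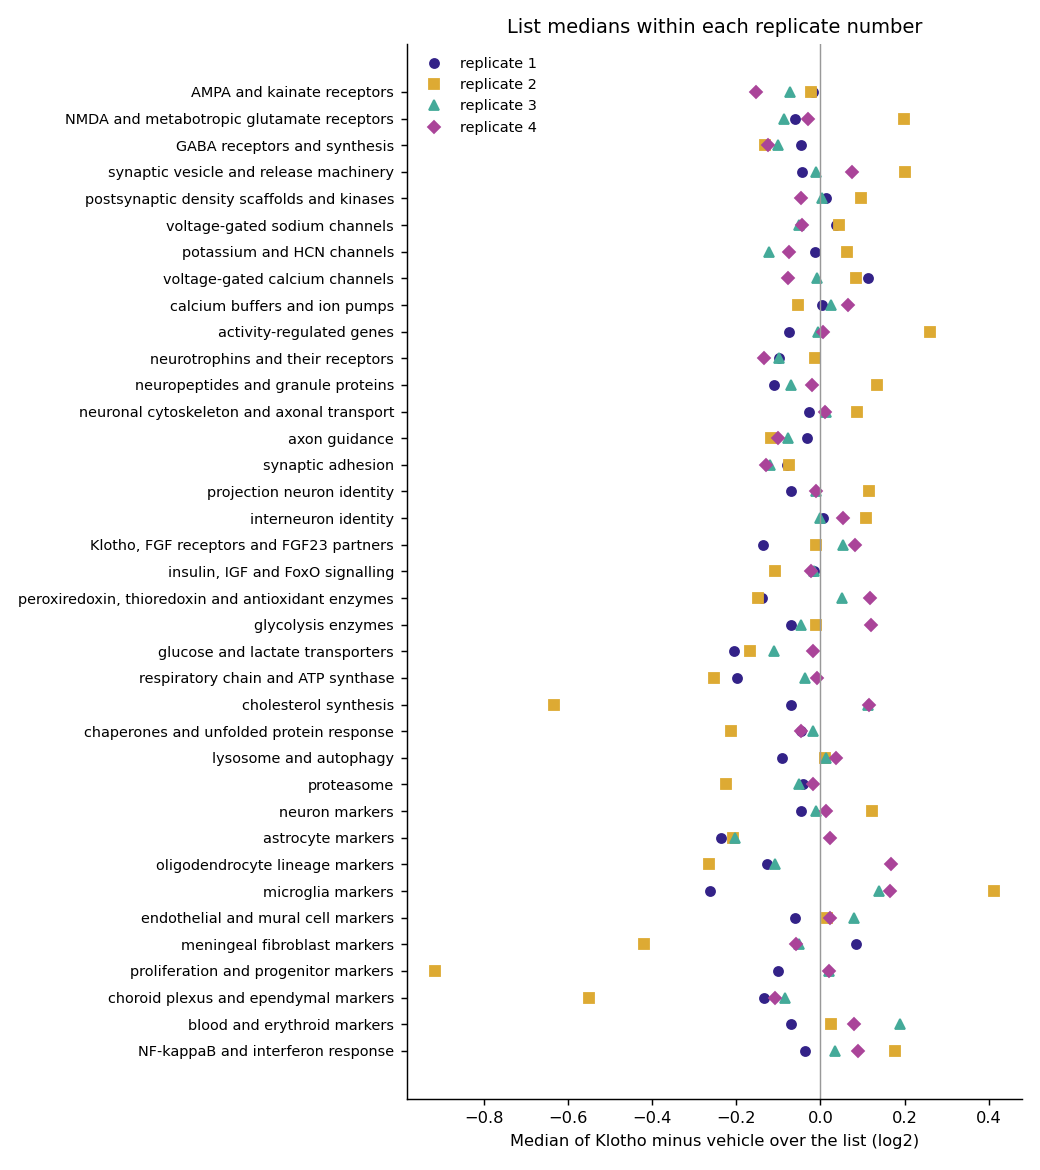
Median of the log2 change (Klotho minus vehicle) over each list, taken within each replicate number. Replicate number 2 stands apart for proliferation at -0.92 and cholesterol synthesis at -0.63, while the medians of the 4 numbers are all below 0 for axon guidance (-0.12 to -0.03) and synaptic adhesion (-0.13 to -0.07). The same holds for other lists, among them AMPA and kainate receptors, GABA, the respiratory chain and the proteasome. Over all units above background throughout, the medians of numbers 1 to 4 are -0.06, -0.02, -0.01 and -0.01.

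Markers of other cell types were followed for the same reason. Aqp4, the astrocyte water channel, was at 1.40, 1.66, 1.87 and 1.70 with vehicle and 1.25, 1.38, 1.39 and 1.38 with Klotho, a change of -0.31 ± 0.12 (SE), although a second probe gave 0.00. Kcnj10, the glial potassium channel Kir4.1, was lower in 4 of 4 pairs by 0.40 ± 0.17 (SE). Gfap went the other way, with a change of 0.21 (paired limits -0.18 and 0.59). Of the 9 microglia markers above background throughout 8 were above 0, with a median of 0.17 that was -0.26 within replicate number 1. Ttr, a choroid plexus and liver transcript, was at -1.88, 1.71, 0.14 and 1.70 with vehicle and -4.66, 1.05, -0.18 and 0.74 with Klotho, lower in 4 of 4 pairs but spread over more than the change of -1.18 within each group. Of 17 endothelial and mural markers 8 were above background throughout, with a median of 0.01. No cell type marker outside the liver list passed.

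Beyond the lists, the genes with the smallest p were mostly of small change or low level. Among those lower, Urah, a hydrolase of urate breakdown that is strongly expressed in liver, was at -3.72, -4.31, -3.88 and -3.90 with vehicle and between -4.87 and -4.72 with Klotho, a change of -0.86 ± 0.14 (SE; adjusted p = 0.0988 in limma). Agrn, agrin, the proteoglycan of synapse formation, lay between 5.98 and 6.15 with vehicle and between 5.68 and 5.83 with Klotho, a change of -0.34 on its brighter probe and -0.03 on the other. Rhbdf1, Sypl, Wt1, Col5a2, Gm10639, Scarf2, Ncoa6 and Slc30a8 followed, with changes between -0.55 and -0.31. Among those higher, Gm13807 lay between -5.24 and -5.07 with vehicle and between -4.76 and -4.06 with Klotho, a change of 0.89 ± 0.16 (SE) close to background. Zfp282, Mau2, Slc4a9, Nrp, Tex101, Nxnl1 and Cym had changes of 0.41 to 0.84, and Nrp, Tex101 and Nxnl1 had vehicle means of -5.12, -4.86 and -3.31. For all of these genes the groups did not overlap, and none passed. The lack of overlap follows largely from choosing them by p. Among all units above background throughout, the groups did not overlap for 2.48% lower and 1.51% higher. Zfp282 and Irak2 each had a second probe with a smaller change, 0.05 and 0.12.

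Genes lost on the Klotho arrays were counted apart. A total of 471 units were well above background on all 4 vehicle arrays and on no Klotho array, and 0 showed the converse. Their median vehicle level was -5.45, inside the range -5.82 to -5.14 of the lowest levels detectable on Klotho arrays, and for 232 of them the vehicle mean was above the bound. The bound exceeded 2-fold for 26 units, of which 20 were on the liver list, 3 were Fabp1, Mug1 and Mug2, and the rest had no symbol. Fabp1 was at least 6.34-fold lower (adjusted p = 0.00087 in limma), Mug1 at least 3.24-fold (adjusted p = 0.0202) and Mug2 at least 3.03-fold (adjusted p = 0.0114). As for Alb, these p-values rest on Klotho signals not well above background and are no separate support. Only the bounds give the size of the fall. The largest bounds that follow among named genes off the liver list were 1.85-fold for Ackr4, a scavenging chemokine receptor, and 1.76-fold for Map3k19, neither of which passed. No gene of the 17 neuronal lists was among the 471.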

How the data were processed

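RNA of each sample was labelled in a single colour and hybridised to an Agilent mouse array (design 028005, annotated on NCBI37). Spot intensities were made by the authors with Feature Extraction 12.0.3.1 (protocol GE1_1200_Jun14), per the file headers, and the processed signal is background-subtracted. The deposited value table holds a score per probe: the log2 processed signal of an array, centred and divided by that array's SD, as found by setting it against the scanner values.

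From the scanner files, control spots and population outlier spots were left out, spots of a probe were averaged, and log2 processed signal was centred on each array's 75th percentile. Of 55681 probes, 28331 (50.9%) were given a symbol through RefSeq accessions (table of GRCm38.p6), and 1455 accessions had no match. A unit is a symbol, represented by its brightest probe, or else the probe's own identifier. A unit was tested where at least 1 group had it well above background on each of its 4 arrays, with limma 3.58.1 (lmFit, eBayes) in R 4.3.3, with Benjamini-Hochberg adjustment over all 24728 units. Summaries, permutation tests (scipy 1.17.1) and figures (matplotlib 3.10.9) were made in Python 3.11.15 with pandas 2.3.3 and numpy 2.4.6. The fit was tested on simulated data.

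Arrays with the same replicate number correlated in their deviations from the group means (r = 0.81, 0.22, 0.57 and 0.47 for numbers 1 to 4). The numbers were therefore tried as a block, although only number 1 was set apart. Between different numbers r was -0.74 to -0.38 where number 1 was involved and 0.27 to 0.56 among numbers 2 to 4, with vehicle 2 closer to Klotho 4 (0.38) than to its own number. The number is also the column of the slide. The test was run without the block, with the block as an alternative.

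The members and gene lists were chosen with earlier results of these data known. Genes named are every called unit with a symbol, the 10 with the smallest p in each direction off the liver list, the 3 with the smallest p of each neuronal, signalling or metabolic list, the 5 largest bounds and a set of anchors; others were named after their values were seen. Alternatives were median and quantile scaling, normexp (offset 50, on the median raw signal, since the files used here hold no mean signal), other background filters, the mean of all probes, outlier spots kept, an intensity trend, all 16 arrays, the value table, the liver list left out and each array left out. Leaving out replicate 1 or 2 of both groups was added after seeing the data. Some named genes are not reported here.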

Additional observations from a re-analysis of the deposited data

Results flagged for a closer look

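Of 276 groups of 4 arrays examined, 40 held an array whose gap to the nearest other, as a share of the group's range, exceeded Dixon's 95% critical value. Chance gives about 1 in 20 groups such an array. In 33 of the 40 the array was replicate 1, 12 times of vehicle and 21 times of Klotho.

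In both groups replicate 1 was apart for Syt1 (6.995 and 6.84 for vehicle and Klotho) and Grin1 (3.21 and 3.13), where it was the highest array. The same held for Bdnf (-0.014 and 0.061). It was the lowest of both groups for Fgfr1 (4.10 and 3.99) and Prdx2 (5.58 and 5.46).

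In the vehicle group alone, replicate 1 was apart for Gm13807 (-5.07), Erc2 (4.62), Lctl (-4.42), Prdx4 (2.23), Camk2a (0.84) and Slc12a5 (6.75), and for the share of spots well above background (65.0%). In the Klotho group alone, replicate 1 was apart for the neuronal genes Grm2 (0.20), Hcn2 (4.44), Cacna1h (3.15), Chgb (6.43), Cdh2 (5.97), Rbfox3 (4.93), Slc17a7 (0.67), Fos (-2.13), Ntrk2 (4.12) and Vgf (5.45). It was also apart for Wt1 (-1.89), Sdhd (4.85), Mvk (5.17), Gfap (-1.39), Aqp4 (1.25) and Slc2a3 (4.34).

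The remaining arrays that stood apart were vehicle replicate 2 for Cacnb2 (-2.78) and Sdhd (5.28), Klotho replicate 3 for Cacnb2 (-2.32), Serpina1e (-4.33) and Basp1 (5.29), and Klotho replicate 4 for Serpina1a (-4.71) and Lctl (-3.56).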

How the results depend on the processing

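Of 36 units lower with Klotho, 7 passed with normexp, 4 when only units above background on all 8 arrays were tested, 163 with no background filter, 62 under the deposited value table, 3 without the liver list, 15 without replicate 1 of both groups, and 17 to 47 when single arrays were left out. With the replicate block, 21 passed. The 36 were all called again under median scaling, quantile scaling and the value table. The count of 0 higher units became 3820 with no filter, of which 3782 were above background on no array, 6 with the mean of all probes, and 0 to 1 without single arrays. The 6 units off the liver list became 1 with normexp, 0 above background on all 8 arrays, 3889 with no filter, 12 with the mean of all probes, 2 with the replicate block, 22 under the value table, 3 without the liver list, 3 without replicate 1 of both groups, and 3 to 9 without single arrays. The cause of these changes was not tested, except that a filter changes which units enter. The difference in spots above background was -8.03 to -6.68 points without single arrays, where 35 arrangements allow no p below 0.0571. No neuronal gene passed in any setting run other than no filter, where Map6d1 did. Of 3700 values of 173 named genes under alternatives, 3429 kept their direction and their side of the threshold, and 111 changed sign. Only 12 of 38 list medians kept their sign under median, quantile, normexp and value table scaling. With probes as units 41 were lower and 0 higher. Signal over background limits the dim genes, for which the Klotho arrays give only bounds.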

Other observations

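Some genes were set apart by a single array. Of the units above background on all 8 arrays, 40 had an array more than 2 log2 units beyond the other 7, above them in 37 units and below in 3, and 12 of the 40 had a symbol. Pter, a phosphotriesterase-related hydrolase, was at 6.92 on vehicle array 4 and between -4.96 and -2.89 on the others. Pdk4, a kinase that inhibits pyruvate dehydrogenase, was at 6.27 on vehicle array 2 and between -3.21 and -0.65 elsewhere. Tomm34, a cochaperone of mitochondrial import, was at 6.59 on vehicle array 4 against 3.61 to 3.77.

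On the Klotho arrays, Cryaa, a lens crystallin, was at -1.05 on array 1 against -5.04 to -4.28 on the others. Agt, angiotensinogen, was at 0.44 on array 2 against -3.59 to -2.88, and Trpv4, an osmosensitive channel, at -0.94 on the same array against -3.86 to -3.16. The group changes of these genes had standard errors of 0.57 to 2.24 on the log2 scale, and none passed in limma. These genes were chosen after their values were seen.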
